A study of Marchantia polymorpha with 12 samples.

Results

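The subject here is the genotype by wounding interaction in the liverwort Marchantia polymorpha, that is, whether a mutant in a pair of fatty acid desaturase genes answered a wound with the same change of each transcript as the wild type. For each gene the quantity was the log2 fold change of wounded over mock plants in the mutant minus the same log2 fold change in the wild type, so that a negative value is a weaker induction or a stronger repression in the mutant. All 12 of the 12 libraries entered, 3 in each of 4 groups, and all genes with enough counts were members, which left 13726 of 20574 gene IDs. The wild type was Tak-1, a male strain, and the mutant carries the name Mpfad3fad7 in the library titles and Mpdes6fad5 in the growth protocol, so the names of the disrupted genes differ between the labels. Each genotype was sampled as mock plants and as plants wounded with tweezers, in both cases at 2 h. The tissue is labelled leaflets, while the growth protocol describes apical fragments without gemma cups from plants grown for 3 weeks on agar. Each replicate was a separate pool of 6 to 8 plants, and nothing in the labels says whether the mutant is 1 line or several.

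Desaturases of this kind put double bonds into the fatty acids of membrane lipids, and their trienoic and more unsaturated products are the starting material of jasmonate-type hormones and other oxylipins. In land plants, wounding frees these fatty acids, lipoxygenases and enzymes of the CYP74 family turn them into cyclic oxylipins, and the receptor COI1 with its JAZ repressors switches on target genes. In Marchantia the hormone that COI1 perceives is a dinor form of the precursor OPDA and not jasmonoyl-isoleucine as in flowering plants, and the same lipid precursors can also form reactive products that induce detoxification genes independently of COI1.

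The libraries held 19121900 to 30821817 counts. Correlations of log2 CPM (library-size-scaled counts) across genes ran from 0.979 to 0.992 within groups and from 0.876 to 0.985 between groups. The highest of the latter was between mock mutant library 1 and mock Tak-1 library 3, and mock mutant library 1 lay between the mock Tak-1 libraries and mock mutant libraries 2 and 3 on the second principal component. It also stood apart in 76 tested genes of desiccation and abscisic acid response, whose median log2 CPM was 3.50 in it, against 1.08 and 0.40 in the other mock mutant libraries, 4.06 to 4.98 in mock Tak-1, 5.14 to 5.26 in wounded Tak-1 and 3.76 to 4.72 in wounded mutant plants. Where leaving it out ended a named gene's call for the difference of responses, or moved a list's nonzero count of such calls by more than 1.5 times, this is said beside the result. Of the wounded mutant libraries, 2 share a column name and are called A and B. Markers of antheridium and sperm, of rhizoids and of gemmae and meristems gave no call in 4, 1 and 6 tested genes. DESeq2 and limma-voom also called none, and at an unadjusted p under 0.05 edgeR gave 1 lower and 1 higher gene of the last list. Over all tested genes 3.29% were called for the difference of responses, so lists this small can hold no call at that share. In such bulk tissue, fewer cells of a type and less RNA per cell cannot be told apart.

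The wound response differed between the genotypes in 451 genes, which is 3.29% of those tested, at a Benjamini-Hochberg adjusted p under 0.05 in edgeR's quasi-likelihood test. The response was lower in the mutant in 356 genes (2.59% of those tested) and higher in 95 (0.692%), so that 78.9% of the called genes were lower. A difference of at least 1 on the log2 scale was reached by 113 of the lower and 17 of the higher genes. Over all tested genes the median difference was -0.004, with quartiles of -0.17 and 0.17. With upper-quartile scaling of the libraries the counts were 293 lower and 164 higher, which makes 64.1% of the calls lower. Leaving out wounded mutant library 1 left 221 lower and 40 higher. The count of higher genes also moved by more than 1.5 times without other single libraries: it was 40 without mock Tak-1 library 3, 41 without mock Tak-1 library 1, 53 without wounded Tak-1 library 1, 59 without mock mutant library 3, 61 without library A and 150 without mock mutant library 1.

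Most of the lower genes were induced by the wound in both genotypes, by less in the mutant. This was the case for 258 of the 356 genes (72.5%), with median log2 responses of 2.00 in Tak-1 and 1.09 in the mutant. Within these 258 genes the mutant's log2 response was a median of 0.56 of that in Tak-1 (quartiles 0.45 and 0.67). A further 65 genes (18.3%) rose in Tak-1 and did not pass the test in the mutant, with median responses of 0.79 and 0.07. In 15 genes the response was up in Tak-1 and down in the mutant, 14 fell in the mutant without a call in Tak-1, and 4 fell in both and further in the mutant. The higher genes were of mixed shape: 28 rose in both genotypes and further in the mutant, 24 fell in both and less in the mutant, 22 fell in Tak-1 without a call in the mutant, 17 rose in the mutant without a call in Tak-1, and 4 fell in Tak-1 and rose in the mutant. These responses share libraries with the difference and are its make-up. Over all tested genes, the response was called up in 30% and down in 25% in Tak-1, and up in 28.6% and down in 22.6% in the mutant.

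**Figure D1:**
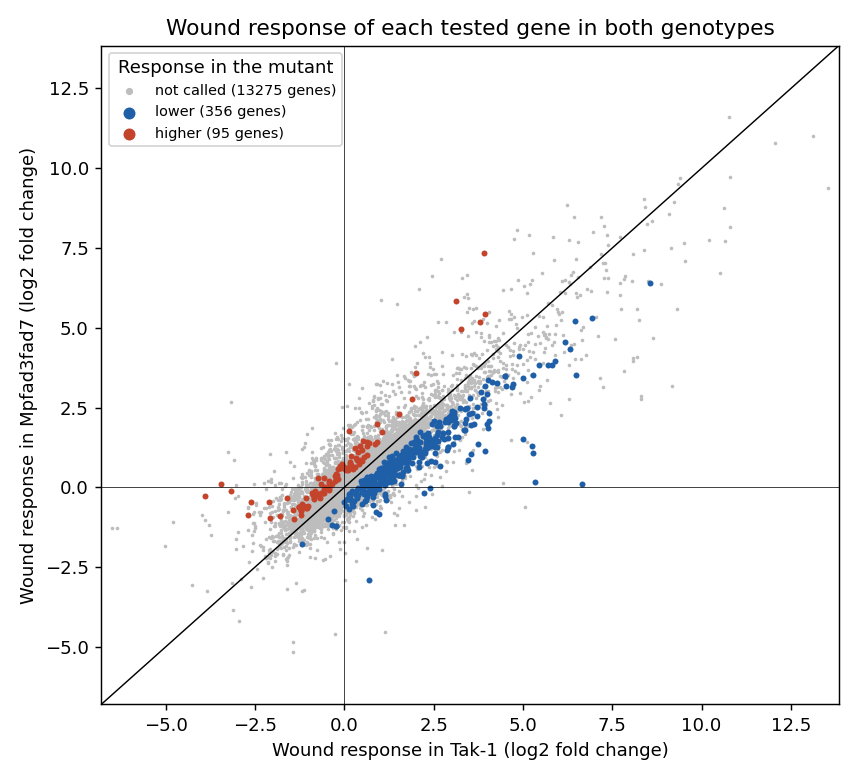
Log2 wound response of each of the 13726 tested genes in Tak-1 (horizontal axis) and in the mutant (vertical axis); the diagonal marks equal responses, blue points are the 356 genes with a lower and red points the 95 genes with a higher response in the mutant. Most blue points lie to the right of the vertical zero line and above the horizontal one, where both genotypes induced the gene, and below the diagonal.

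The levels of the lower genes in each treatment show where the difference of responses lay. Over these genes, the median difference of mutant against Tak-1 was 0.03 in mock plants and -0.76 in wounded plants on the log2 scale. Of all tested genes, 2.51% were called lower and 2% higher in mock mutant than in mock Tak-1 plants, and 9.51% lower and 5.03% higher in wounded ones. In wounded plants all mutant libraries were below all Tak-1 libraries in 346 of the 356 genes, where 17.3% of all tested genes had this order. In mock plants the libraries of the genotypes overlapped in 249 of them. The mutant was higher in 70 and lower in 37, where each of these orders held in 12.4% of all tested genes. Because these contrasts enter the called difference, the order in wounded plants follows in part from the call. On an additive scale the double difference of mean CPM kept its sign in 356 of 356 lower genes and in 91 of 95 higher genes, and had the opposite sign in 4 of the latter.

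The difference also followed the size of the response among genes that were not selected by a call. Genes were sorted by the mean of their log2 responses in the 2 genotypes. The median difference was -0.01 where the mean response was 0 to 0.5, -0.05 at 0.5 to 1, -0.17 at 1 to 2, -0.30 at 2 to 3, -0.44 at 3 to 4 and -0.53 at 4 and over. Among repressed genes it was 0.02 at -0.5 to 0, 0.03 at -1 to -0.5, 0.13 at -2 to -1 and 0.12 in the 55 genes below -2. The share of genes called lower was highest, at 12.7%, where the mean response was 2 to 3. Across all tested genes the responses of the genotypes, which share no library, had a Pearson r of 0.893 and a Spearman rho of 0.849; genes are not independent replicates and this is a description only.

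**Figure D2:**
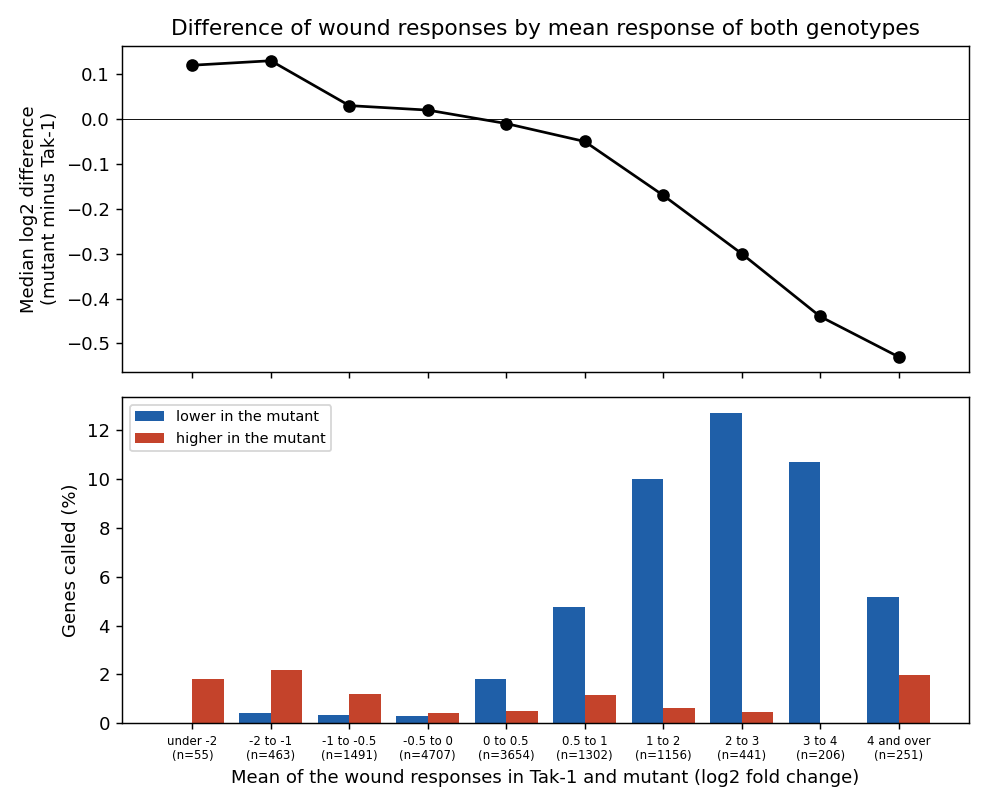
Upper panel, median difference of the log2 wound responses (mutant minus Tak-1) for genes sorted by the mean response of both genotypes; lower panel, percent of the genes of each class called lower (blue) or higher (red) in the mutant. The median falls from 0.13 in genes with a mean response of -2 to -1 to -0.53 in genes at 4 and over, and calls of lower genes peak at 12.7% at 2 to 3.

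The genes disrupted in the mutant cannot be checked from these counts, since a transcript can be made from a mutated gene. MpFAD3, 1 of the 2 desaturases named in the library titles, stood at 205, 217 and 218 CPM in mock and 220, 210 and 237 CPM in wounded Tak-1. In the mutant it was at 250, 255 and 235 CPM in mock and 248, 254 and 236 CPM in wounded plants. The libraries of both treatments overlapped in each genotype, and the difference of responses was -0.07 ± 0.08 (log2 ± SE, adjusted p 0.787). MpDES6, named in the growth protocol, differed by 0.07 ± 0.18 (adjusted p 0.917), and MpDES5, for which the gene table gives MpFAD7 as another name, by 0.01 ± 0.08 (adjusted p 0.985). MpFAD5, the other gene named there, was at 234, 202 and 247 CPM in mock and 349, 373 and 359 CPM in wounded Tak-1, and at 295, 343 and 300 CPM in mock and 339, 378 and 338 CPM in wounded mutant plants. Its difference of -0.49 ± 0.12 (adjusted p 0.0422) went with a higher level in mock mutant plants, while the wounded groups overlapped. This call ended when any of mock Tak-1 library 1 or 2, wounded Tak-1 library 1, 2 or 3, mock mutant library 2 or 3, or wounded mutant library 1 or B was left out, with adjusted p of 0.0616 to 0.117.

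A second desaturase call was MpFAD11, which made 2 of 14 tested desaturases lower (14.3%) and none higher. Over all tested genes, 2.59% were lower and 0.692% higher. The median difference over the list was -0.07. MpFAD11 transcripts stood at 507, 499 and 569 CPM in mock and 838, 1030 and 997 CPM in wounded Tak-1, but at 164, 193 and 183 CPM in mock and 180, 193 and 219 CPM in wounded mutant plants. The Tak-1 treatments did not overlap and the mutant treatments did. The difference of responses was -0.73 ± 0.14 (adjusted p 0.0121), beside a genotype difference of -1.55 already in mock plants (adjusted p 3.68e-06) and of -2.27 in wounded plants (adjusted p 1.35e-07).

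Enzymes that act on the freed fatty acids were among the induced genes that rose less in the mutant. Of 17 tested lipoxygenases and CYP74 enzymes, 4 were lower and none higher, beside 2.59% and 0.692% of all tested genes, and the median difference was -0.13. The list's median responses were 0.79 in Tak-1 and 0.99 in the mutant. Of all tested genes with a mean response of 0.5 to 1, 4.76% were called lower. MpLOX2, a lipoxygenase, which adds oxygen to polyunsaturated fatty acids, stood at 228, 226 and 252 CPM in mock and 1714, 2116 and 1894 CPM in wounded Tak-1. Mutant plants had 180, 201 and 204 CPM in mock and 757, 787 and 966 CPM after wounding. Both genotypes rose without overlap of treatments, and the wounded mutant libraries stayed below all wounded Tak-1 libraries. The log2 responses were 3.02 and 2.10, a difference of -0.92 ± 0.15 (adjusted p 0.00408). MpCYP74N2, of the family that converts the resulting hydroperoxides, stood at 287, 262 and 295 CPM in mock and 1440, 1642 and 1341 CPM in wounded Tak-1, and at 237, 233 and 216 CPM in mock and 522, 577 and 745 CPM in wounded mutant plants. Its log2 responses of 2.39 and 1.43 differed by -0.96 ± 0.17 (adjusted p 0.00681), again with separate wounded groups.

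Another lipoxygenase, MpLOX14, had a different shape. It was at 557, 638 and 570 CPM in mock and 591, 470 and 452 CPM in wounded Tak-1, where the treatments overlapped, and at 461, 521 and 494 CPM in mock and 210, 222 and 202 CPM in wounded mutant plants. The gene thus fell in the mutant (-1.22, adjusted p 3.76e-07) and did not pass the test in Tak-1 (-0.22, adjusted p 0.0669), and the responses differed by -1.0 ± 0.14 (adjusted p 0.00183). MpLOX4 rose from 8.87, 5.11 and 11.4 to 212, 333 and 279 CPM in Tak-1 and from 8.61, 5.65 and 6.65 to 69.5, 59.8 and 96.6 CPM in the mutant. The wounded groups were apart, but the difference of -1.57 ± 0.38 (adjusted p 0.0429) was no longer called without any of mock Tak-1 library 1 or 2, wounded Tak-1 library 2 or 3, mock mutant library 1, 2 or 3, or wounded mutant library 1 or A (adjusted p 0.0506 to 0.11).

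Downstream of the hormone, 3 of 6 tested jasmonate signalling genes were lower and none higher, beside 2.59% and 0.692% of all tested genes. The median difference over the 6 was -0.41, and their median responses were 1.64 in Tak-1 and 1.23 in the mutant. Lower calls were more frequent among induced genes in general, at 10% for mean responses of 1 to 2. MpJAZ, the repressor that the hormone removes and that is itself a target of the pathway, stood at 27.0, 28.3 and 30.6 CPM in mock and 214, 247 and 199 CPM in wounded Tak-1. In the mutant it was at 26.3, 26.9 and 25.5 CPM in mock and 104, 113 and 144 CPM in wounded plants. The difference of responses was -0.74 ± 0.16 (adjusted p 0.0257). The mock libraries of all 6 pools lay between 25.5 and 30.6 CPM, and the wounded groups did not overlap. MpCYP94-like and MpCYP94L1 bear the name of the CYP94 family, whose members oxidise and inactivate jasmonoyl-isoleucine in Arabidopsis. MpCYP94-like was at 1.01, 0.860 and 0.656 CPM in mock and 34.1, 35.9 and 39.2 CPM in wounded Tak-1, against 0.579, 0.898 and 0.374 CPM in mock and 8.71, 7.19 and 9.84 CPM in wounded mutant plants. Its difference was -1.62 ± 0.35 (adjusted p 0.0257), and that of MpCYP94L1 was -0.74 ± 0.18 (adjusted p 0.0429). The receptor gene MpCOI1 fell in both genotypes, by 0.58 in Tak-1 and by 0.49 in the mutant, with no called difference (0.09 ± 0.08, adjusted p 0.636).

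The calls of these signalling genes depended on single libraries. MpJAZ had an adjusted p of 0.072 without mock Tak-1 library 1, 0.0579 without mock mutant library 2, 0.059 without wounded mutant library 1 and 0.0653 without library A. MpCYP94-like had an adjusted p of 0.0769 without mock Tak-1 library 3, 0.0522 without mock mutant library 1, 0.0912 without mock mutant library 2 and 0.055 without wounded mutant library 1. For MpCYP94L1 it was 0.0513 to 0.113 without any of mock Tak-1 library 2 or 3, wounded Tak-1 library 1 or 2, any mock mutant library, or wounded mutant library 1 or A. The count of 3 was accordingly 1 without mock Tak-1 library 3, mock mutant library 1 or library A, and 0 without mock mutant library 2 or wounded mutant library 1. The log2 difference of each of the 3 stayed below 0 in all of these.

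A further list held the shikimate pathway, which makes chorismate and from it the aromatic amino acids that feed phenylpropanoids. This list was drawn up after the values had been seen and gets no test. Of its 11 tested genes 7 were lower and none higher, beside 2.59% lower and 0.692% higher over all tested genes. Median responses were 0.98 in Tak-1 and 0.40 in the mutant. Calls of lower genes were more frequent among induced genes in general, at 4.76% for mean responses of 0.5 to 1. They were 10% for mean responses of 1 to 2. MpDAHP, for the first step of the pathway, stood at 199, 218 and 234 CPM in mock and 1147, 1289 and 1096 CPM in wounded Tak-1, and at 225, 206 and 202 CPM in mock and 497, 452 and 609 CPM in wounded mutant plants. Mock groups overlapped and wounded groups did not. The difference was -1.14 ± 0.15 (adjusted p 0.00141). MpEPSPS, the enzyme that glyphosate inhibits, rose from 60.7, 63.5 and 67.6 to 149, 176 and 180 CPM in Tak-1 and from 74.3, 67.5 and 65.8 to 86.3, 89.1 and 95.4 CPM in the mutant, a difference of -1.01 ± 0.11 (adjusted p 0.000606). MpCS, chorismate synthase, rose from 137, 139 and 143 to 531, 586 and 562 CPM in Tak-1 and from 139, 144 and 136 to 285, 289 and 335 CPM in the mutant. Its difference of -0.88 ± 0.10 (adjusted p 0.000577) again came with overlapping mock and separate wounded groups.

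Of the other genes of the list 4 were called. Mp3DHQ2 differed by -0.58 ± 0.11 (adjusted p 0.00944). The arogenate dehydratases MpADT2 and MpADT4, which lead to phenylalanine, differed by -0.61 ± 0.10 (adjusted p 0.00626) and -0.85 ± 0.13 (adjusted p 0.00299). MpADT4 was at 38.3, 37.4 and 38.5 CPM in mock and 164, 170 and 154 CPM in wounded Tak-1, and at 48.7, 43.2 and 46.1 CPM in mock and 92.4, 112 and 123 CPM in wounded mutant plants, so the mutant began higher and ended lower. MpICS, isochorismate synthase, had the call nearest to the threshold of 0.05 in this list (-0.46 ± 0.11, adjusted p 0.0489), and it ended in 17 of 20 alternatives, among them the loss of any single library other than wounded Tak-1 library 3 and mock mutant library 1. The remaining 4 genes were not called: Mp3DHQ1 fell in both genotypes (-0.39 in Tak-1 and -0.37 in the mutant), with a difference of 0.02 (adjusted p 0.964), and the differences of MpCM, MpADT1 and MpADT3 were 0.03, -0.13 and -0.49 (adjusted p 0.967, 0.688 and 0.107). MpEDS5 shares its name with an Arabidopsis transporter that moves isochorismate out of plastids for salicylic acid synthesis. It rose from 25.8, 27.7 and 28.1 to 125, 155 and 136 CPM in Tak-1 and from 21.3, 22.8 and 23.7 to 52.8, 48.0 and 60.4 CPM in mutant plants (-1.10 ± 0.14, adjusted p 0.000973).

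**Figure D3:**
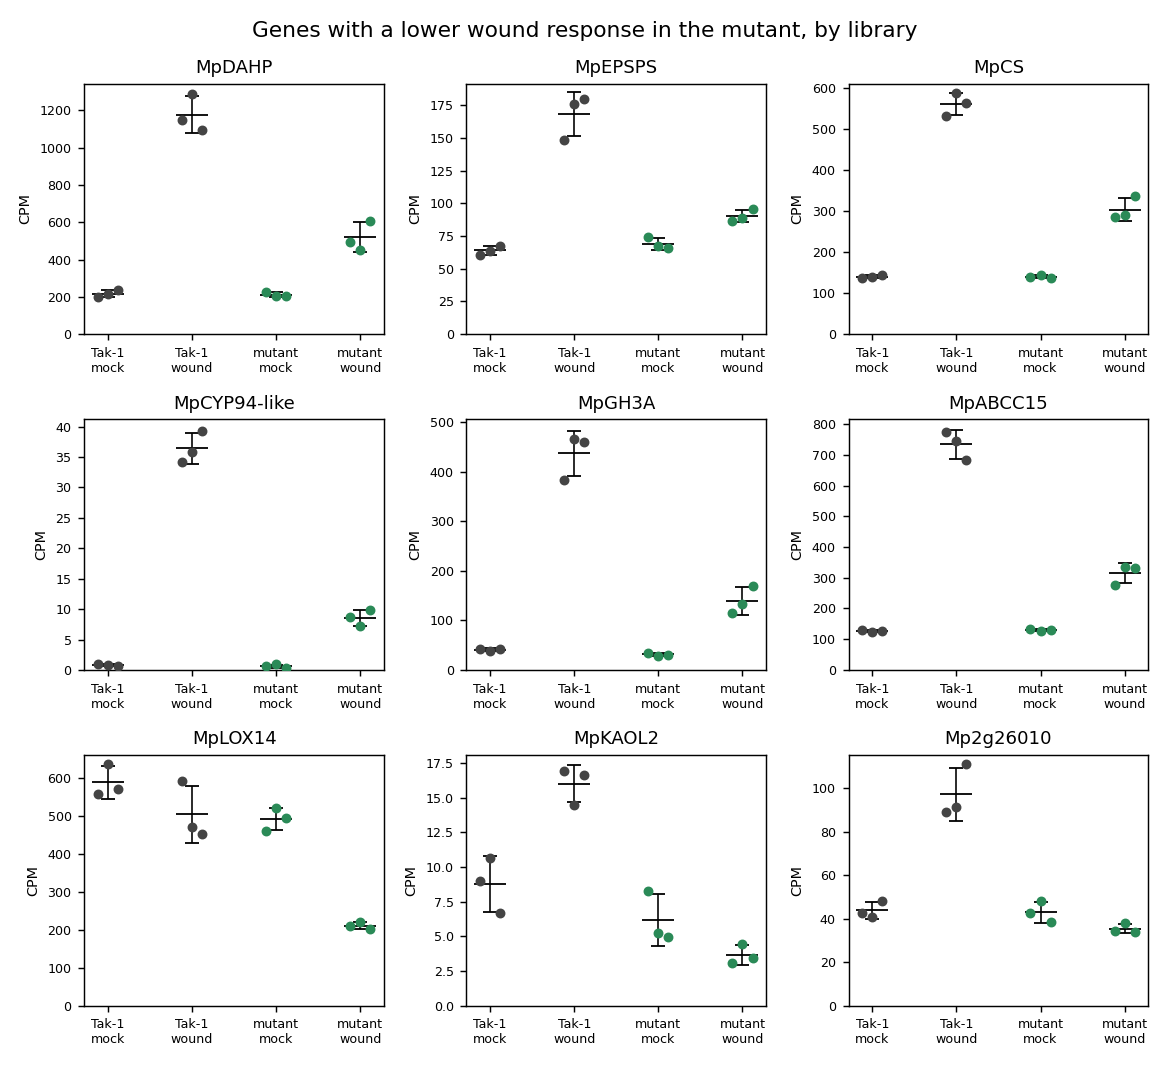
CPM of 9 genes with a lower wound response in the mutant; each point is a library (grey Tak-1, green mutant), and the horizontal mark and bar give the mean and SD of 3 libraries. For MpDAHP, MpEPSPS, MpCS and MpABCC15 the mock libraries are near each other while the wounded mutant libraries stay below those of Tak-1; MpLOX14 falls in the mutant, where its treatments do not overlap, and MpKAOL2 and Mp2g26010 rise in Tak-1 and fall in the mutant.

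In phenylpropanoid and flavonoid metabolism the calls went both ways, with 6 of 128 tested enzymes lower (4.69%) and 4 higher (3.12%). All tested genes had shares of 2.59% and 0.692%, and the list's median difference was -0.04. The 4 higher calls were 2 without any of mock Tak-1 library 1 or 3, wounded Tak-1 library 1, mock mutant library 3, or wounded mutant library 1 or B. Mp4CL2, a 4-coumarate:CoA ligase, which activates the cinnamic acids, rose from 159, 149 and 149 to 1157, 1467 and 1224 CPM in Tak-1 and from 129, 123 and 123 to 491, 546 and 669 CPM in the mutant. Its difference was -0.89 ± 0.15 (adjusted p 0.00681), with the mutant below Tak-1 in both treatments and by more after wounding. MpC4H3, named for cinnamate 4-hydroxylase, stood at 15.8, 13.7 and 15.4 CPM in mock and 20.7, 15.8 and 16.7 CPM in wounded Tak-1, and at 20.6, 20 and 18.8 CPM in mock and 12.3, 14.0 and 13.3 CPM in wounded mutant plants. It fell in the mutant (-0.58, adjusted p 0.000736) and was not called in Tak-1 (0.24, adjusted p 0.08), a difference of -0.83 ± 0.16 (adjusted p 0.0126). The dioxygenase MpDOXC27 differed by -0.82 ± 0.12 (adjusted p 0.00288). The acyl-CoA synthetase MpACOS2 differed by -0.57 ± 0.11 (adjusted p 0.0164; 0.052 without mock Tak-1 library 1). On the other side, MpACOS16 rose further in the mutant, from 91.9, 103 and 108 to 246, 277 and 250 CPM against 104, 106 and 107 to 200, 185 and 185 CPM in Tak-1 (0.50 ± 0.10, adjusted p 0.0149). MpDFR-like4, named for dihydroflavonol reductase, fell by 1.05 in Tak-1 and by 0.64 in the mutant (0.40 ± 0.08, adjusted p 0.0124).

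Among proteins that act on phenolics outside the core pathway, 4 of 83 dirigent proteins, laccases and polyphenol oxidases were lower (4.82%) and none higher. These stand beside 2.59% and 0.692% of all tested genes, and the list's median was -0.14. MpPPO20, a polyphenol oxidase, rose from 11, 14.1 and 11.6 to 210, 198 and 205 CPM in Tak-1 and from 12.4, 9.29 and 11.4 to 55.0, 45.8 and 67.0 CPM in mutant plants (-1.72 ± 0.20, adjusted p 0.000628). Mock groups overlapped, while the highest wounded mutant library was below the lowest wounded Tak-1 library. MpPPO22 was the more abundant of the pair: it rose from 106, 92.3 and 108 to 1831, 2067 and 2008 CPM in Tak-1 and from 68.5, 54.5 and 52.0 to 515, 558 and 615 CPM in the mutant. Its difference was -1.0 ± 0.15 (adjusted p 0.00299). The dirigent protein gene MpDIR17 differed by -0.81 ± 0.15 (adjusted p 0.0119). Members of these families are similar in sequence, and how reads shared between them were counted is not given in the sources used here, so single members are uncertain. In class III peroxidases, another large family, none of 111 tested members was lower and 6 were higher (5.41%, beside 0.692% of all tested genes). They are described with the higher genes.

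Genes of detoxification were called lower in 15 of 135 tested members and higher in none, which is 11.1% beside 2.59% of all tested genes, although the median difference was only -0.04. Without mock Tak-1 library 1 or without wounded mutant library 1 the count was 8. MpABCC15, of the transporter class that in Arabidopsis carries glutathione conjugates into the vacuole, had the smallest adjusted p of all named genes. It was at 130, 125 and 127 CPM in mock and 775, 745 and 682 CPM in wounded Tak-1, and at 132, 126 and 130 CPM in mock and 277, 334 and 332 CPM in wounded mutant plants. The mock libraries of both genotypes spanned 125 to 132 CPM, and the log2 responses of 2.53 and 1.28 differed by -1.25 ± 0.11 (adjusted p 0.000274). MpMATE1, of a family of proton-coupled exporters, rose from 86.0, 80.8 and 85.4 to 231, 241 and 240 CPM in Tak-1 and from 84.3, 82.7 and 81.5 to 146, 152 and 159 CPM in mutant plants (-0.62 ± 0.07, adjusted p 0.00075). MpMATE4 rose in Tak-1 by 1.00 and was not called in the mutant (0.11, adjusted p 0.443), and the difference was -0.89 ± 0.16 (adjusted p 0.00944).

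Glutathione transferases, which attach glutathione to reactive compounds, gave examples of both a lost and a reduced response. MpGST3 stood at 65.8, 78.3 and 75.1 CPM in mock and 158, 128 and 124 CPM in wounded Tak-1, and at 77.6, 81.6 and 83.3 CPM in mock and 74.8, 87.6 and 83.9 CPM in wounded mutant plants, where the treatments overlapped. Its difference was -0.88 ± 0.14 (adjusted p 0.00342). MpGST38 was close to the floor of 3 counts in all mock libraries, at 0.125 to 0.333 CPM, and reached 21.5, 16.4 and 21.1 CPM in wounded Tak-1 but 2.33, 3.69 and 3.09 CPM in wounded mutant plants. The difference of -2.98 ± 0.50 (adjusted p 0.00618) rests on mock groups of 16 and 18 counts in all. MpGST19 differed by -0.83 ± 0.15 (adjusted p 0.00723). The glutathione reductase gene MpGR1, picked after its values were seen, rose from 78.6, 89.6 and 82.1 to 189, 196 and 178 CPM in Tak-1 and from 87.0, 80.5 and 85.9 to 121, 114 and 123 CPM in mutant plants (-0.67 ± 0.09, adjusted p 0.00154). The genes MpGR2, MpGR3 and MpGR4 fell in both genotypes and their differences were not called (0.03, -0.08 and -0.05, adjusted p 0.935, 0.737 and 0.879). All of these reductases belong to a list of the ascorbate and glutathione cycle, also drawn up after the values were seen. In it 5 of 19 tested genes were lower and none higher, beside 2.59% and 0.692% of all tested genes. The list gets no test. Its median responses were 0.51 in Tak-1 and 0.16 in the mutant. Of all tested genes with a mean response of 0 to 0.5, 1.81% were called lower, and 4.76% at 0.5 to 1. The other lower genes, MpDHAR1, MpMDHAR1, MpAPX1 and MpPCS, lost their calls in 7, 9, 14 and 12 of 20 alternatives. Leaving out mock mutant library 1 was among these for MpAPX1 and MpPCS. In MpGST38, MpGST19 and MpGR1 the treatments were apart in Tak-1.

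**Figure D4:**
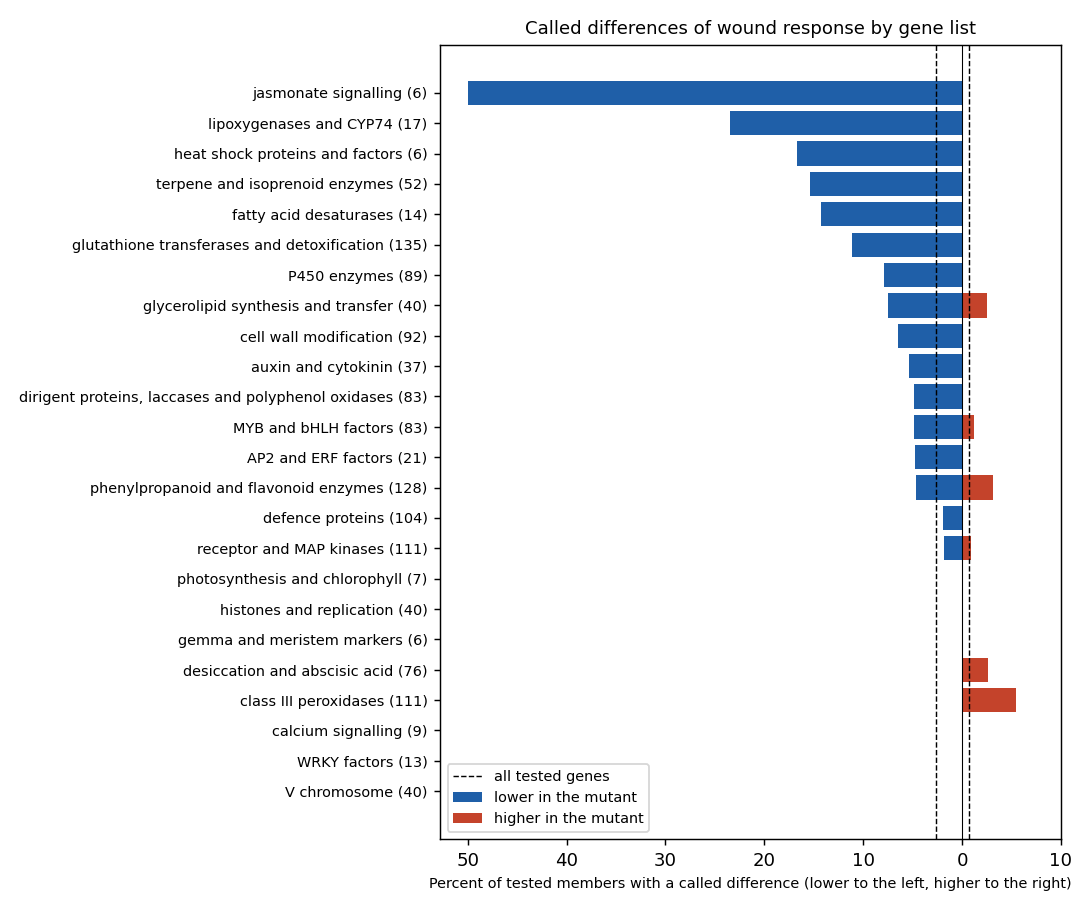
Percent of the tested members of each gene list of at least 6 tested genes (number in parentheses) with a lower (blue, to the left) or higher (red, to the right) wound response in the mutant; dashed lines mark the same shares over all tested genes, 2.59% and 0.692%. Jasmonate signalling, at 3 of 6 genes, and lipoxygenases and CYP74, at 4 of 17, are the plotted lists with the largest lower shares, while peroxidases and desiccation genes have higher calls and no lower ones.

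In terpene and isoprenoid metabolism 8 of 52 tested genes were lower (15.4%) and none higher, beside 2.59% and 0.692% of all tested genes. The median difference was -0.22. Without wounded mutant library 1 the count was 5. MpSQC2 was at 1.54, 2.48 and 1.53 CPM in mock and 11.1, 7.85 and 10.1 CPM in wounded Tak-1, and at 1.62, 1.95 and 1.29 CPM in mock and 1.28, 1.87 and 1.65 CPM in wounded mutant plants. The mutant treatments overlapped, and the difference was -2.42 ± 0.36 (adjusted p 0.00288). MpSQS1, named for squalene synthase, the entry to sterols and triterpenes, differed by -0.68 ± 0.10 (adjusted p 0.00288), and MpLCY-like2, named for lycopene cyclase of the carotenoid pathway, by -0.68 ± 0.12 (adjusted p 0.00681). The diterpenoid genes MpKOL1 and MpKAOL2 are named for ent-kaurene oxidase and ent-kaurenoic acid oxidase. MpKOL1 stood at 16.6, 14.1 and 14.8 CPM in mock and 26.7, 28.5 and 25.5 CPM in wounded Tak-1, and at 11.7, 15.6 and 12.5 CPM in mock and 13, 9.95 and 12.1 CPM in wounded mutant plants (-1.01 ± 0.18, adjusted p 0.00803). MpKAOL2 rose in Tak-1, from 9.01, 10.7 and 6.68 to 16.9, 14.5 and 16.6 CPM, and fell in the mutant, from 8.31, 5.23 and 4.99 to 3.06, 4.48 and 3.41 CPM. Its difference was -1.65 ± 0.32 (adjusted p 0.013), and both responses were called (adjusted p 0.00381 and 0.0139).

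P450 enzymes, some of which also belong to the lists above, were lower in 7 of 89 tested members (7.87%) and higher in none. All tested genes had shares of 2.59% and 0.692%, and the list's median was -0.07. The count was 3 without mock Tak-1 library 3 or mock mutant library 2, and 4 without wounded Tak-1 library 1 or wounded mutant library 1. MpCYP97A35, of a family that hydroxylates carotenoids, rose from 131, 119 and 133 to 410, 494 and 418 CPM in Tak-1 and from 128, 143 and 139 to 216, 228 and 270 CPM in mutant plants (-0.99 ± 0.13, adjusted p 0.00174). The mock groups overlapped and the wounded groups did not. MpCYP710A16, of the sterol C-22 desaturase family, differed by -0.84 ± 0.18 (adjusted p 0.0267). Its call ended without mock Tak-1 library 2 or 3, wounded Tak-1 library 1 or mock mutant library 2, with adjusted p of 0.0527 to 0.066.

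Lipid synthesis genes gave 3 lower and 1 higher call in 40 tested members (7.5% and 2.5%). All tested genes had shares of 2.59% and 0.692%, and the list's median was -0.01. MpMGDG, for the synthesis of the main galactolipid of plastid membranes, in which trienoic fatty acids reside, stood at 116, 104 and 120 CPM in mock and 205, 256 and 246 CPM in wounded Tak-1. Mutant plants had 123, 138 and 129 CPM in mock and 153, 153 and 162 CPM after wounding. The treatments were apart in each genotype, and the difference was -0.79 ± 0.12 (adjusted p 0.00288). MpGPAT6b, a glycerol-3-phosphate acyltransferase of the type that makes cutin in Arabidopsis, rose from 36.3, 40.2 and 38.5 to 105, 95.2 and 101 CPM in Tak-1 and from 37.7, 36.3 and 35.1 to 52.7, 58.0 and 58.0 CPM in mutant plants (-0.76 ± 0.09, adjusted p 0.000877). The third lower call, MpFAE2, differed by -0.59 ± 0.14 (adjusted p 0.0429) and had adjusted p of 0.0527 to 0.114 without any single library other than wounded Tak-1 library 3. MpGPAT6c was the higher call (0.56 ± 0.13, adjusted p 0.0353). It was not called without any of mock Tak-1 library 2 or 3, any wounded Tak-1 library, mock mutant library 2 or 3, or wounded mutant library 1 or A (adjusted p 0.0551 to 0.0946), which leaves 0 higher calls in the list.

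Among regulatory genes, MYB and bHLH factors gave 4 lower and 1 higher call in 83 tested genes (4.82% and 1.2%, median 0.10). AP2 and ERF factors gave 1 lower call in 21 (4.76%, median -0.17), and WRKY factors none in 13 (median -0.18). Over all tested genes, 2.59% were lower and 0.692% higher. The WRKY genes had median responses of 2.35 in Tak-1 and 2.17 in the mutant, and 11 of the 13 differences were below 0. All tested genes with a mean response of 2 to 3 had a median difference of -0.30, and 12.7% of them were called lower. At an unadjusted p under 0.05 edgeR gave 2 lower and 2 higher WRKY genes, DESeq2 called 1 in each direction and limma-voom 1 higher. MpERF7 rose from 13.1, 9.65 and 14.5 to 89.5, 104 and 85.3 CPM in Tak-1 and from 15.8, 22.3 and 13.7 to 35.3, 41.3 and 48.8 CPM in mutant plants (-1.62 ± 0.26, adjusted p 0.00443). MpBHLH1 rose from 32.2, 34.5 and 32.1 to 83.4, 93.0 and 93.1 CPM in Tak-1 and from 29.8, 30.6 and 32.2 to 46.5, 44.0 and 51.2 CPM in mutant plants (-0.83 ± 0.10, adjusted p 0.000982). Both had overlapping mock groups and separate wounded groups. MpBHLH44 rose in Tak-1 by 0.80 and was not called in the mutant (0.13, adjusted p 0.196), a difference of -0.67 ± 0.12 (adjusted p 0.00704). MpBHLH2 was among the more strongly induced of these, with log2 responses of 4.52 and 3.18 and a difference of -1.33 ± 0.27 (adjusted p 0.0187). Mp1R-MYB16 differed by -0.73 ± 0.13 (adjusted p 0.00709).

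In the AP2 and ERF list the single lower call was 2 without any of wounded Tak-1 library 2 or 3, mock mutant library 1 or library B. A WRKY gene was called lower without wounded Tak-1 library 3, and higher without wounded Tak-1 library 2 or mock mutant library 2. The higher call of the MYB and bHLH list was 2 without mock mutant library 2. Receptor and MAP kinases gave 2 lower and 1 higher call in 111 (1.8% and 0.901%), near the 2.59% and 0.692% of all tested genes. The higher call, MpRLK-Pelle_PERK-2a (0.48 ± 0.11, adjusted p 0.0322), ended without any of mock Tak-1 library 2 or 3, wounded Tak-1 library 1 or 3, mock mutant library 1 or 3, or wounded mutant library 1, and without library A or B there were 2 higher calls. MpMKK3, a MAP kinase kinase, rose from 35.3, 33.5 and 39.6 to 111, 95.8 and 94.5 CPM in Tak-1 and from 35.1, 36.0 and 34.9 to 48.7, 54.9 and 58.5 CPM in mutant plants (-0.86 ± 0.13, adjusted p 0.00253). MpMAPKKK10 differed by -1.37 ± 0.28 (adjusted p 0.0176; 0.0527 without mock Tak-1 library 1). MpHSP90-1, a chaperone gene and the 1 lower call of 6 heat shock genes, was at 430, 438 and 446 CPM in mock and 717, 670 and 671 CPM in wounded Tak-1. In the mutant it stood at 467, 415 and 432 CPM in mock and 468, 472 and 476 CPM in wounded plants. It rose in Tak-1 (0.65, adjusted p 7.1e-07) and was not called in the mutant (0.11, adjusted p 0.136), a difference of -0.54 ± 0.08 (adjusted p 0.00288).

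Hormone genes outside the jasmonate list gave 2 lower calls in 37 auxin and cytokinin genes (5.41%, beside 2.59% of all tested genes). The median was 0.08. MpGH3A belongs to the GH3 family, which joins hormones such as auxin and jasmonate to amino acids. It rose from 42.3, 38.5 and 42.7 to 384, 466 and 461 CPM in Tak-1 and from 34.6, 28.9 and 30.8 to 114, 132 and 169 CPM in mutant plants (-1.27 ± 0.18, adjusted p 0.0023). MpPIN3, of the family of auxin exporters, was at 23.7, 31.9 and 35.8 CPM in mock and 157, 130 and 126 CPM in wounded Tak-1, and at 51.2, 51.5 and 43.2 CPM in mock and 97.8, 89.5 and 92.0 CPM in wounded mutant plants. The order of the genotypes was thus opposite in mock and wounded plants, with no overlap in either, and the difference was -1.24 ± 0.18 (adjusted p 0.00288).

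Cell wall genes were lower in 6 of 92 tested members (6.52%) and higher in none, beside 2.59% and 0.692% of all tested genes. The median was 0.02. MpGH16.15, of the family that holds the xyloglucan endotransglucosylases, rose from 6.72, 4.82 and 6.06 to 54.4, 43.2 and 49.2 CPM in Tak-1 and from 10.5, 9.45 and 7.53 to 20.6, 26.5 and 22.7 CPM in mutant plants (-1.71 ± 0.21, adjusted p 0.000987). MpCE8.12, of the pectin methylesterase family, rose from 15.5, 12.6 and 18.1 to 41.9, 34.1 and 39.4 CPM in Tak-1, while the mutant stood at 15.7, 14.2 and 14.2 CPM in mock and 17.1, 15.5 and 20.2 CPM in wounded plants (-1.06 ± 0.19, adjusted p 0.00944). The mutant's response was not called (0.26, adjusted p 0.136). MpExpansin16, a wall-loosening protein gene, rose by 0.64 in Tak-1 and fell by 0.30 in the mutant (-0.94 ± 0.16, adjusted p 0.00723). MpEXL5 differed by -1.13 ± 0.23 (adjusted p 0.0194; 0.0601 without wounded mutant library 1 and 0.0507 without library A). In defence proteins 2 of 104 were lower and none higher, and the lower share of 1.92% was below the 2.59% of all tested genes. MpCupin86, with -1.08 ± 0.15 (adjusted p 0.00182), was the call that did not depend on a single library. The count was 1 without mock Tak-1 library 1 or 2 or wounded Tak-1 library 1 or 2. It was also 1 without mock mutant library 2, or wounded mutant library 1 or A. MpPPR_72, of the organelle RNA-binding pentatricopeptide repeat family, differed by -0.80 ± 0.10 (adjusted p 0.00123).

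Several lists gave no call in either direction. These were calcium signalling with 9 tested genes (median 0.09), photosynthesis and chlorophyll with 7 (-0.01), histones and replication with 40 (-0.06) and the genes of the V chromosome with 40 (0.10). Over all tested genes 2.59% were called lower and 0.692% higher. In lists of these sizes, an absence of calls does not show that the responses were equal. At an unadjusted p under 0.05, edgeR gave 1 lower and 1 higher gene in the calcium list, none in the photosynthesis list, 2 lower and 3 higher in the histone list and 1 higher among the V genes. DESeq2 called 1 calcium gene lower, and limma-voom called no gene of these lists. The histone list had median responses of -0.63 in Tak-1 and -0.56 in the mutant, and the photosynthesis list of -0.74 and -0.72. Of 3 air pore markers 1 was lower, MpNOP1, a ubiquitin ligase gene required for air chambers in Marchantia. It differed by -0.40 ± 0.09 (adjusted p 0.0349) and was not called without any of the mock Tak-1 libraries, wounded Tak-1 library 1, mock mutant library 1 or 3, or wounded mutant library 1 (adjusted p 0.0502 to 0.0878).

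Genes with a higher wound response in the mutant formed the smaller set, and its size depended on more of the single libraries, as given above. MpBHLH12, a transcription factor gene, stood at 80.1, 91.2 and 81.9 CPM in mock and 84.7, 84.1 and 81.2 CPM in wounded Tak-1, and at 62.2, 62.4 and 56.9 CPM in mock and 94.3, 92.7 and 93.8 CPM in wounded mutant plants. It rose in the mutant (0.63, adjusted p 2.19e-06) and was not called in Tak-1 (-0.02, adjusted p 0.822). The difference was 0.65 ± 0.09 (adjusted p 0.00154). MpJAGGED fell in Tak-1 from 83.7, 85.7 and 81.6 to 48.1, 48.8 and 45.9 CPM, while the mutant treatments overlapped at 75.1, 72.9 and 68.7 CPM in mock and 60.0, 74.9 and 63.5 CPM in wounded plants (0.68 ± 0.11, adjusted p 0.00407). MpFRO2, of the ferric reductase family, fell in both genotypes, from 32.6, 26.9 and 32.5 to 9.58, 8.32 and 8.44 CPM in Tak-1 and from 36.2, 37.2 and 39.5 to 22.7, 21.2 and 16.3 CPM in the mutant. Its fall was smaller in the mutant by 0.90 ± 0.17 (adjusted p 0.013). MpGT48.1, of the callose synthase family, rose further in the mutant, from 180, 176 and 185 to 324, 319 and 338 CPM against 185, 179 and 181 to 228, 247 and 260 CPM in Tak-1 (0.43 ± 0.08, adjusted p 0.0105). The wounded groups of the genotypes were apart in all 4 of these genes.

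MpTCP2, of the TCP transcription factor family, fell less in the mutant, by 0.55 ± 0.11 (adjusted p 0.0211). Its adjusted p was 0.0624 without mock Tak-1 library 1, 0.0527 without mock Tak-1 library 3, 0.056 without mock mutant library 3 and 0.0638 without wounded mutant library 1. MpNBS-LRR8, of the family of intracellular immune receptors, fell less by 0.64 ± 0.13 (adjusted p 0.0187; 0.0504 without mock Tak-1 library 1 and 0.055 without wounded mutant library 1).

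The class III peroxidases, secreted enzymes that act on cell wall phenolics, had a median difference of 0.43 over 111 tested genes, with median responses of -0.81 in Tak-1 and -0.29 in the mutant, and 6 were called higher. The median was 0.23 without mock Tak-1 library 1, 0.28 without mock mutant library 2 and 0.69 without wounded Tak-1 library 3. The count was 1 without any of mock Tak-1 library 1 or 3, wounded Tak-1 library 1 or wounded mutant library 1, and 2 without mock mutant library 2 or library A. MpPOD116 stood at 2.11, 1.10 and 1.34 CPM in mock and 0.140, 0.129 and 0.132 CPM in wounded Tak-1, and at 1.12, 0.422 and 1.91 CPM in mock and 1.39, 1.13 and 1.26 CPM in wounded mutant plants. The wounded Tak-1 libraries held 10 counts in all, and the difference was 3.56 ± 0.70 (adjusted p 0.0152). MpPOD121 fell in Tak-1 from 11, 7.26 and 9.96 to 2.41, 3.35 and 3.52 CPM and was not called in the mutant, at 9.27, 9.40 and 12.1 CPM in mock and 9.59, 7.53 and 7.15 CPM in wounded plants. Its difference of 1.27 ± 0.28 (adjusted p 0.0303) was not called without any of mock Tak-1 library 1 or 3, wounded Tak-1 library 1, mock mutant library 1 or 2, or wounded mutant library 1 (adjusted p 0.0514 to 0.0902). MpPOD156, which rose in both genotypes and further in the mutant (0.71 ± 0.15, adjusted p 0.0211), was not called without any of mock Tak-1 library 1 or 3, wounded Tak-1 library 1, or wounded mutant library 1 or A (adjusted p 0.0507 to 0.0659).

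The desiccation and abscisic acid list, mostly late embryogenesis abundant (LEA) proteins that protect cells against water loss, had a median of 0.73 over 76 genes, with median responses of 0.64 in Tak-1 and 1.68 in the mutant. The median was 0.34 without mock Tak-1 library 2, 0.45 without mock mutant library 3, 0.30 without library A and 1.06 without mock mutant library 1. Of its genes 2 were called, both higher (2.63%, beside 0.692% of all tested genes). The count of higher calls was 22 without mock mutant library 1, the library that stood apart in this list. It was 1 without any mock Tak-1 library, wounded Tak-1 library 1 or 2 or library A, 0 without wounded Tak-1 library 3, mock mutant library 2 or 3 or library B, and 2 without wounded mutant library 1. Without wounded Tak-1 library 3 or library B 2 genes were called lower, and 1 without mock Tak-1 library 2. MpLEA-like4 was at 9.89, 15.3 and 7.34 CPM in mock and 41.2, 48.1 and 41.2 CPM in wounded Tak-1, and at 2.82, 2.11 and 1.87 CPM in mock and 21.6, 31.4 and 29.1 CPM in wounded mutant plants. The mutant was below Tak-1 in both treatments without overlap, and by more in mock plants, which makes the log2 difference of responses positive (1.56 ± 0.34, adjusted p 0.0289) while the increase in CPM was smaller in the mutant. The call ended without wounded Tak-1 library 1 or 3, mock mutant library 2 or 3, or library A or B (adjusted p 0.0536 to 0.0801). MpLEA-like40, the other call (adjusted p 0.0409), held 1 count over all mock mutant libraries, and its fitted size is uncertain, at 2.76 to 5.39 over the alternatives. It was not called without any single library other than wounded Tak-1 library 1, mock mutant library 1 and wounded mutant library 1 (adjusted p 0.0551 to 0.131).

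Most called genes carry no symbol: of the 451, 132 do, and 2538 of the 13726 tested IDs do. Among the IDs without one, Mp6g15660 and Mp1g22390 had the largest lower differences with at least 1 group mean of 5 CPM, and their shape was another. Mp6g15660 stood at 0, 0.143 and 0.0312 CPM in mock and 3.32, 5.66 and 8.57 CPM in wounded Tak-1, but at 21.2, 21.1 and 25.2 CPM in mock and 28.0, 19.0 and 25.5 CPM in wounded mutant plants. The mutant was above Tak-1 in every library of both treatments, and its treatments overlapped. Mp1g22390 had the same shape, with 0.132, 0.0478 and 0.375 CPM in mock and 6.05, 9.61 and 10.4 CPM in wounded Tak-1, against 38.6, 33.9 and 23.1 CPM in mock and 40.3, 39.9 and 27.7 CPM in wounded mutant plants. The fitted differences were -6.54 ± 0.68 and -5.16 ± 0.52 (adjusted p 0.000561 for both), and mock Tak-1 held 4 and 16 counts in all, so these sizes are uncertain. The neighbouring tested genes Mp1g22410 and Mp1g22420 rose from near 0 to 8.42, 7.46 and 9.37 CPM and to 7.27, 5.02 and 11 CPM in wounded Tak-1. In the mutant they went from 0.541, 0.634 and 0.915 to 1.97, 1.53 and 1.65 CPM and from 1.24, 1.37 and 1.12 to 2.52, 2.86 and 2.44 CPM. They differed by -3.96 ± 0.42 (adjusted p 0.000577) and -4.21 ± 0.54 (adjusted p 0.00118). Unlike Mp1g22390, these neighbours were below Tak-1 in the wounded mutant and above it only in mock plants.

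Opposite responses were called in 15 lower and 4 higher genes. Mp2g26010 rose in Tak-1 from 42.8, 40.6 and 48.3 to 89.0, 91.5 and 111 CPM and fell in the mutant from 42.5, 48.0 and 38.3 to 34.5, 37.9 and 33.8 CPM (-1.42 ± 0.15, adjusted p 0.000561). Mp8g12940, next to MpLOX14, rose in Tak-1 from 85.4, 76.1 and 94.5 to 154, 139 and 150 CPM and fell in the mutant from 86.8, 72.3 and 79.4 to 64.5, 60.4 and 67.4 CPM (-1.10 ± 0.12, adjusted p 0.000606). Without strand information, reads of overlapping neighbours cannot be told apart. The mirror case, Mp4g23270, fell in Tak-1 from 71.2, 64.0 and 74.0 to 51.3, 46.4 and 42.3 CPM and rose in the mutant from 71.2, 74.8 and 66.2 to 92.9, 87.4 and 80.5 CPM (0.88 ± 0.12, adjusted p 0.00188). In all 3 genes the mock groups of the genotypes overlapped and the wounded groups did not.

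The largest higher differences among IDs without a symbol and with at least 1 group mean of 5 CPM were in Mp1g07900, Mp1g29040 and Mp4g09430. Mp4g09430 rose from 14.0, 14.0 and 15.7 to 116, 169 and 138 CPM in Tak-1 and from 3.21, 3.80 and 4.03 to 113, 96.9 and 132 CPM in mutant plants (1.69 ± 0.22, adjusted p 0.00123). Its mock mutant libraries were below all mock Tak-1 libraries and the wounded groups overlapped. The log2 difference was thus positive while the increase in mean CPM was smaller in the mutant. Mp1g29040 fell from 6.24, 4.73 and 6.15 to 0.979, 0.858 and 0.791 CPM in Tak-1 and from 4.67, 3.75 and 6.28 to 3.43, 2.31 and 2.34 CPM in mutant plants (1.83 ± 0.35, adjusted p 0.012). Here the mock groups overlapped and the wounded mutant libraries were all higher. Mp1g07900 stood at 4.09, 9.03 and 2.41 CPM in mock and 40.0, 49.4 and 42.8 CPM in wounded Tak-1, and at 1.04, 0.475 and 0.499 CPM in mock and 36.4, 38.3 and 45.1 CPM in wounded mutant plants. Its difference of 2.71 ± 0.57 (adjusted p 0.0224) came from the mock level and was not called without wounded Tak-1 library 1 (0.0507) or mock mutant library 2 (0.0644) or 3 (0.0717).

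**Figure D5:**
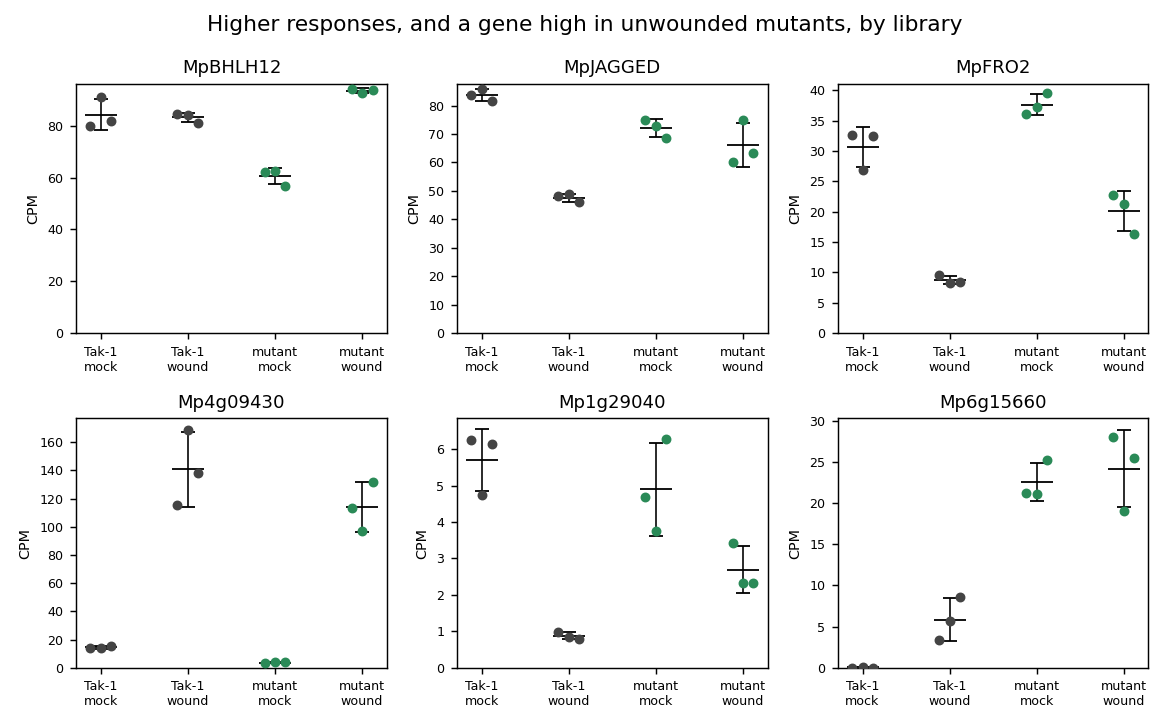
CPM of 5 genes with a higher wound response in the mutant and of Mp6g15660, whose level in unwounded mutant plants was already high; each point is a library (grey Tak-1, green mutant), with mean and SD of 3 libraries. MpBHLH12 rises in the mutant, where its treatments do not overlap, MpJAGGED, MpFRO2 and Mp1g29040 fall less in it, Mp4g09430 starts from a lower mock level, and Mp6g15660 has 21.1 to 25.2 CPM in mock mutant plants against 0 to 0.143 CPM in mock Tak-1.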

How the data were processed

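RNA of 12 pools of plants was sequenced, and the table deposited by the authors holds raw counts per gene, unscaled whole numbers. The submitters' processing notes list Trim Galore, HISAT2, HTSeq and edgeR, with no version or setting. Not given in the sources used here are the genome build, the annotation and the strandedness of the counting. Columns were assigned to groups by their names; 2 wounded mutant columns share a name and were used as members of their group without a number. All columns of values were used (0 left out). Symbols came from the RefSeq gene table (MpTak2_v7.1 assembly), in which 17641 of 20574 IDs and 13184 of the 13726 tested IDs were found. No promoter or protein sequence was used here, so the description of promoter motifs that had been planned was not made.

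Counts were analysed in R 4.3.3 with edgeR 4.0.16: genes were filtered by filterByExpr by group, TMM factors scaled the 12 libraries, and the quasi-likelihood fit had a mean for each group and no covariate (common BCV 0.121; degrees of freedom 8 residual, 4.46 prior). The difference of wound responses and its component contrasts were tested two-sided, with Benjamini-Hochberg adjustment over all tested genes and a threshold of 0.05. The SE of a log2 value is its size over the square root of the F statistic. CPM were taken over TMM-scaled totals of tested genes. A floor of 3 counts is 0.0937 to 0.158 CPM; it covers counting error only. On simulated counts for the real genes (13588 in the fit), the same script recovered 92% of 100 genes changed by 1 on the log2 scale. Of 100 genes changed by 2 it recovered 99%, and 6 of 197 calls in all were false. The changed genes were drawn only from those with an average log2 CPM over 3. These shares therefore do not hold for genes of lower level. Counts were also drawn independently for each gene and library. Shifts shared by many genes of a library, as in mock mutant library 1, were thus absent, and the share of false calls among the real calls can differ.

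Genes are named by these rules: up to 12 called genes with a symbol in each direction by smallest adjusted p, up to 4 further called members of each list, the desaturase, lipoxygenase, CYP74 and jasmonate genes fixed by name, and up to 3 IDs without a symbol in each direction by size with at least 1 group mean of 5 CPM; not all of those are described. MpGR1 with its ascorbate and glutathione list and the shikimate list were chosen after their values were seen. So were the neighbours Mp1g22410 and Mp1g22420 and the genes of opposite response. The comparison and all lists were chosen with earlier results of these data known, and lists were counted, not tested. Alternatives were other scalings, no filter, limma-voom (limma 3.58.1), DESeq2 1.42.0, a replicate block, and leaving out libraries.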

Additional observations from a re-analysis of the deposited data

Results flagged for a closer look

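A test of the difference itself, the interaction term of the edgeR fit over all 12 libraries, set apart the wound responses of the genotypes in 356 genes that were lower and 95 that were higher in the mutant. These are 2.59% and 0.692% of the genes tested, and 2106 genes (15.3%) had an unadjusted p under 0.05. Most of the named genes among them follow with their log2 difference of wound responses, mutant minus Tak-1. The samples of each and the adjusted p stand in the report. No explanation was weighed. Lower responses among desaturases and oxylipin enzymes were those of MpFAD5 (-0.49), MpFAD11 (-0.73), MpLOX2 (-0.92), MpCYP74N2 (-0.96), MpLOX14 (-1.0) and MpLOX4 (-1.57). In jasmonate signalling the lower responses were MpJAZ (-0.74), MpCYP94-like (-1.62) and MpCYP94L1 (-0.74). For the shikimate pathway and its products they were MpDAHP (-1.14), Mp3DHQ2 (-0.58), MpEPSPS (-1.01), MpCS (-0.88), MpADT2 (-0.61), MpADT4 (-0.85) and MpEDS5 (-1.10). Among genes of phenolic metabolism they were Mp4CL2 (-0.89), MpC4H3 (-0.83), MpDOXC27 (-0.82), MpACOS2 (-0.57), MpPPO20 (-1.72), MpPPO22 (-1.0) and MpDIR17 (-0.81). Lower responses among detoxification and redox were those of MpABCC15 (-1.25), MpMATE1 (-0.62), MpMATE4 (-0.89), MpGST3 (-0.88), MpGST38 (-2.98), MpGST19 (-0.83) and MpGR1 (-0.67). In isoprenoid metabolism and P450 enzymes the lower responses were MpSQC2 (-2.42), MpSQS1 (-0.68), MpLCY-like2 (-0.68), MpKOL1 (-1.01), MpKAOL2 (-1.65), MpCYP710A16 (-0.84) and MpCYP97A35 (-0.99). For lipid synthesis they were MpMGDG (-0.79), MpGPAT6b (-0.76) and MpFAE2 (-0.59). Among genes of regulators and chaperones they were MpERF7 (-1.62), MpBHLH1 (-0.83), MpBHLH2 (-1.33), MpBHLH44 (-0.67), Mp1R-MYB16 (-0.73), MpMKK3 (-0.86), MpMAPKKK10 (-1.37) and MpHSP90-1 (-0.54). Lower responses among hormone genes were those of MpGH3A (-1.27) and MpPIN3 (-1.24). In cell wall, defence and other genes the lower responses were MpGH16.15 (-1.71), MpExpansin16 (-0.94), MpCE8.12 (-1.06), MpEXL5 (-1.13), MpCupin86 (-1.08), MpPPR_72 (-0.80) and MpNOP1 (-0.40). For IDs without a symbol they were Mp1g22390 (-5.16), Mp1g22410 (-3.96), Mp1g22420 (-4.21), Mp6g15660 (-6.54), Mp2g26010 (-1.42) and Mp8g12940 (-1.10).

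Higher responses among regulators were those of MpBHLH12 (0.65), MpJAGGED (0.68) and MpTCP2 (0.55). As to enzymes and a receptor, they were MpGT48.1 (0.43), MpGPAT6c (0.56), MpDFR-like4 (0.40), MpFRO2 (0.90), MpACOS16 (0.50) and MpNBS-LRR8 (0.64). For peroxidases and LEA proteins they were MpPOD116 (3.56), MpPOD121 (1.27), MpPOD156 (0.71), MpLEA-like4 (1.56) and MpLEA-like40 (3.45). Among IDs without a symbol they were Mp4g09430 (1.69), Mp1g29040 (1.83), Mp1g07900 (2.71) and Mp4g23270 (0.88). The value of MpLEA-like40 rests on 1 count in mock mutant plants and depends on the prior of the fit, and that of MpPOD116 on 10 counts in wounded Tak-1.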

How the results depend on the processing

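In 20 alternatives no called gene of the 451 changed sign, and 126 lower and 9 higher genes were called in every one. Without 1 library at a time the lower count ran from 221 to 380 and the higher count from 40 to 150. Without both unnumbered wounded mutant libraries there were 225 lower and 27 higher genes. The DESeq2 Wald test called 596 lower and 209 higher, with 355 of the 356 and all 95 of the 95 among them. Upper-quartile scaling gave 164 higher beside 293 lower, limma-voom 83 beside 309, and a size of at least 1 on the log2 scale 17 beside 113. Leaving out mock mutant library 1 and mock Tak-1 library 2 together, chosen after the data were seen, gave 287 lower and 140 higher. The causes of these moves were not tested, other than that a size limit leaves fewer calls by construction.

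Equal replicate numbers gave no sign of pairing the samples. Deviations from the group means of same-numbered libraries correlated between -0.141 and 0.19 (12 pairs, 3 over 0.1). Those of differently numbered libraries correlated between -0.245 and 0.296 (24 pairs, 7 over 0.1). Deviations within a group sum to 0, which ties these correlations to each other, so they cannot exclude pairing. A fit with the replicate number as a block, on the numbered libraries, called 186 lower and 33 higher genes.

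Of the 81 called genes listed as flagged for a closer look, 40 kept the call in all 20 alternatives and 28 lost it in 1 to 5. Of these 81 calls the block ended 34, the loss of both unnumbered libraries 21, limma-voom 7 and upper-quartile scaling 3. DESeq2, its size factors and the missing filter ended 0 of them. Called genes named only elsewhere in the text are not in this tally. Among those, MpICS lost its call in 17 of 20 alternatives, with DESeq2's size factors and without the filter too. MpRLK-Pelle_PERK-2a lost its call in 9 and Mp1g09110 in 8. Lists without a call in a direction had at most 2 in it under any scaling, filter, block or loss of libraries. Genes in the lowest of 4 equal classes of level, with a mean CPM of 0.142 to 5.66, were called in 0.466%, against 6.61% in the highest.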

Other observations

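Called genes lay side by side in places. Between tested neighbours in the order of the gene table there were 23 runs of lower genes, holding 49 genes, and 2 runs of higher genes, holding 4. The order covered the 13184 tested IDs found in that table. Of all tested genes, 2.59% were called lower and 0.692% higher. How many runs these shares would give by chance was not worked out, so the counts do not show clustering. The longest runs held 3 genes: Mp1g22390, Mp1g22410 and Mp1g22420, then Mp1g09100, Mp1g09110 and Mp1g09120 (log2 differences of -1.14, -0.76 and -1.26), and Mp6g15680, Mp6g15690 and Mp6g15700 (-0.75, -0.80 and -1.44). The call of Mp1g09110 (adjusted p 0.0267), which joins its run, ended without any of mock Tak-1 library 1 or 2, wounded Tak-1 library 1, or wounded mutant library 1 or A (adjusted p 0.0532 to 0.0809). Without strand information, reads of overlapping neighbours cannot be told apart. Lower calls were 2.15% to 3.27% of the tested genes on chromosomes 1 to 8.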
